A study of Homo sapiens with 11 samples.

Results

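The urokinase plasminogen activator system is described here through 5 human genes, listed by their roles and not by their values: PLAU, which encodes urokinase, its receptor gene PLAUR, the tissue-type activator gene PLAT and the inhibitor genes SERPINE2 and SERPINB2. All 5 were found by symbol among the 25590 genes of the tables. RNA was measured by sequencing in 11 tumours of PC-3, a human prostate carcinoma cell line. The tumours had grown under the skin of male athymic nude mice, which were 8 weeks old when the tumour cells were injected. The PBS group held 5 tumours (PBS-123, PBS-124, PBS-125, PBS-126 and PBS-127, by their numbers in the labels) of mice given PBS, and the A2M group held 6 tumours (A2M-128, A2M-129, A2M-130, A2M-131, A2M-132 and A2M-112) of mice given A2M*, the transformed form of human alpha2-macroglobulin, at 5.6 mg per injection into the peritoneum, starting on day 7 of tumour growth. Every tumour came from the same cell line, so that the data describe 1 genetic background, and nude mice lack a thymus and most T cells. Each tumour gave 1 library, and no label ties a tumour of one group to a tumour of the other.

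Urokinase and the tissue-type activator are serine proteases that cut plasminogen into plasmin, which degrades fibrin and parts of the extracellular matrix. Urokinase is secreted as an inactive proenzyme and is held at the cell surface by its receptor, a protein with a lipid anchor. Serpins trap the activators in covalent complexes, and LRP1, which is also the uptake receptor of A2M*, removes such complexes from the cell surface. The system is known in prostate carcinoma for its part in invasion, and PC-3 cells are known to secrete urokinase.

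Upstream sequences are shown for PLAU and PLAUR, whose RNA was highest in the same tumour, and for SERPINB2, the member with the least RNA. They were taken from RefSeq and placed on GRCh37 by exact match, written 5′ to 3′ on the gene's strand, with positions counted back from the transcription start (-1 is the last base before it). The table held the 250 bases before a start for 4 of the 5 members. It held none for PLAT, whose RNA was highest in the same tumour as that of PLAU and PLAUR. Capitals mark matches on either strand to the motifs of AP-1, the GC box, the TATA box and the core of the hypoxia response element, whose letters are given after the sequences, and no matches shown here overlap.
PLAU, chr10:75670640-75670861, plus strand: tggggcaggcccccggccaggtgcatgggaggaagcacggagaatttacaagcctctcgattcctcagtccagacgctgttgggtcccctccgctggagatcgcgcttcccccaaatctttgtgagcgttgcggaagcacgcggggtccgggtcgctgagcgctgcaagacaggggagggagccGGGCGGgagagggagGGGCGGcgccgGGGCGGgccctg
PLAUR, chr19:44174492-44174516, minus strand: acaactccaTGAGTCAgggccgagc
SERPINB2, chr18:61554689-61554938, plus strand: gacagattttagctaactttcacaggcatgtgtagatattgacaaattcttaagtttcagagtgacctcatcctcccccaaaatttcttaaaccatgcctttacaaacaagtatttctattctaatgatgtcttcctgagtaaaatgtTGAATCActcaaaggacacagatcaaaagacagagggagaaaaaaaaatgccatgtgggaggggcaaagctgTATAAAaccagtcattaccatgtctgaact

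The PLAU stretch ends at base -29, where an annotated untranslated exon of another PLAU transcript begins, and it holds 3 GC boxes between bases -66 and -35. The table also lists a PLAU start further upstream, whose window (chr10:75670118-75670367, not printed) holds none of the motifs. The GC box, the binding motif of Sp1-type factors, was searched for as GGGCGG and occurs in 42.6% of the 35116 upstream sequences of the table. For PLAUR only 25 bases are shown, since its whole window lies in an untranslated exon of another PLAUR transcript. They hold a match to AP-1, the dimer of Fos and Jun proteins, at bases -186 to -180. This motif was searched for as TGANTCA and occurs in 6.57% of upstream sequences. The SERPINB2 window holds an AP-1 match at bases -102 to -96 and a TATA box at bases -30 to -25. The latter was searched for as TATAAA and is found in 10.7% of upstream sequences. The core of the hypoxia response element was searched for as ACGTG, is present in 18.5% of upstream sequences and was found in none of the windows of these 3 genes. A window of SERPINE2 (chr2:224896196-224896445, not printed) holds overlapping matches to it between bases -87 and -82, and the other SERPINE2 window holds none.

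The libraries held between 16958533 and 35874381 counts on human genes. Epithelial genes marked the tumours as labelled, with KRT8 between 205 and 280.1 RPKM and KRT18 between 257 and 376 RPKM (reads per kilobase of exon and per 1e+06 counted reads), whereas the androgen-dependent KLK3 was at 0 in all 11 tumours. In bulk RNA of this kind, fewer cells that make a transcript and less of it per cell cannot be told apart.

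PLAU was among the most abundant transcripts of these tumours. It took between 0.366% (A2M-132) and 0.831% (A2M-112) of all counts of a library. By counts it ranked between 1 (A2M-112) and 5 (A2M-132) among all genes, and per exon length between 4 and 25. PLAU made up 94.8% to 96.8% of the summed RPKM of the 5 members in every tumour, so that the total of the system was in practice the level of PLAU. The position of PLAU is chromosome 10, 75668935 to 75677254, on the plus strand (GRCh37). Its exons share 915 bases with C10orf55, an RNA gene on the opposite strand. Reads of the pair cannot be told apart without strand. C10orf55 had between 539 and 1540 counts where PLAU had between 79612 and 266904. How reads in the shared bases were counted is not given, so the effect of the overlap on the level of PLAU is not known.

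Because RPKM is per length, the levels of the members were compared within each tumour as differences in log2(RPKM + 0.1). PLAU exceeded PLAUR by a mean of 5.07 ± 0.205 (SD, n = 11 tumours), a 33.6-fold difference in level. PLAUR exceeded PLAT by 2.19 ± 0.205, which is 4.57-fold. SERPINE2 exceeded SERPINB2 by 3.65 ± 0.492, which is 12.5-fold. Each of these 3 steps held in 11 of 11 tumours, and the ranges of the genes did not overlap (two-sided exact sign-flip permutation test, p = 0.000977, adjusted p = 0.0013 over the 4 neighbouring pairs). This p is the smallest that the 2048 sign flips allow, and the order of the genes was itself set by their mean levels in these tumours. PLAT and SERPINE2, the other activator and an inhibitor of both activators, were the neighbours that did not differ beyond their spread. Their log2 difference was 0.02 ± 0.436, PLAT was the higher one in 7 of 11 tumours and the exact permutation test gave p = 0.876.

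**Figure D1:**
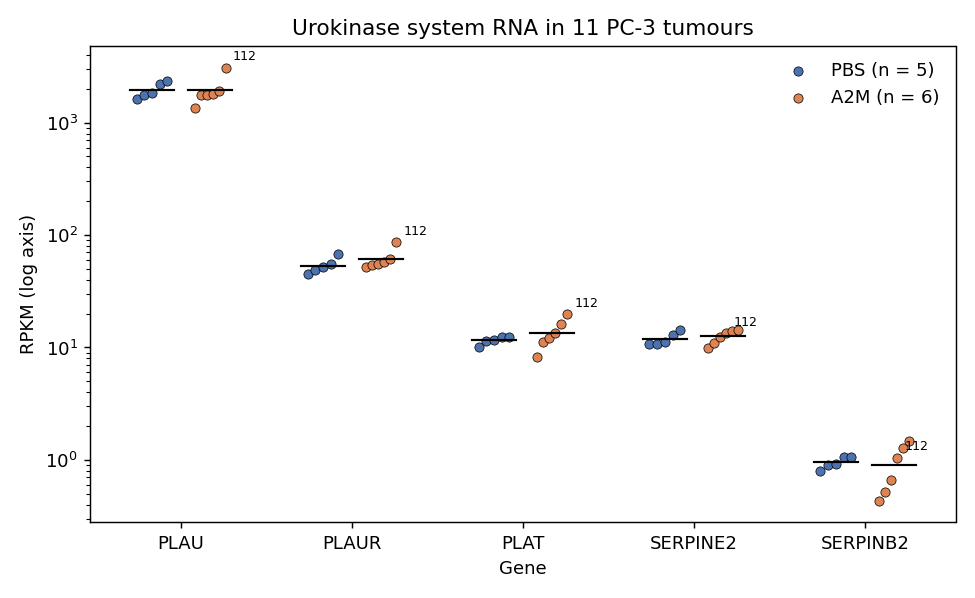
RPKM (log axis) of the 5 members in each tumour, with 5 PBS tumours in blue, 6 A2M tumours in orange and the group mean as a line; A2M-112 is labelled by its number. PLAU lies above 1360 RPKM in every tumour, the groups of every gene overlap, and A2M-112 is the highest point for PLAU, PLAUR and PLAT.

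Urokinase RNA did not separate the groups. PLAU was at 1849.7, 2359.7, 1606, 2218 and 1768 RPKM in PBS-123, PBS-124, PBS-125, PBS-126 and PBS-127. In the A2M group it lay between 1360.5 (A2M-132) and 3088 (A2M-112), with a median of 1783 RPKM. The lowest and the highest of the 11 values both belonged to the A2M group, and the other 5 A2M tumours were not above the range of the PBS group. The means were 1960.4 ± 316 RPKM (SD, n = 5) for PBS and 1946 ± 590.1 RPKM (SD, n = 6) for A2M. The log2 fold change of A2M over PBS was -0.05 (SE 0.182, 95% interval -0.44 to 0.34, edgeR adjusted p = 0.972). This interval spans levels from 0.736 to 1.27 times those of the PBS group. Without A2M-112 the mean of the A2M group was 1718 RPKM.

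The urokinase receptor gene PLAUR (chromosome 19, 44150247 to 44174699, minus strand) was at 51.8, 67.3, 45.0, 48.9 and 54.97 RPKM in the PBS tumours in the order of their numbers. In the A2M group it lay between 51.6 (A2M-132) and 85.9 (A2M-112), with a median of 56.1 RPKM. Of the A2M tumours, only A2M-112 was above the highest PBS tumour, and none was below the lowest. The log2 fold change was 0.14 (SE 0.140, 95% interval -0.16 to 0.44, edgeR adjusted p = 0.889), and 0.013 without A2M-112.

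PLAT, whose product is the activator best known for dissolving fibrin clots (chromosome 8, 42032236 to 42065227, minus strand), was at 12.4, 12.3, 10.03, 11.8 and 11.4 RPKM in the PBS tumours in that order. In the A2M group it lay between 8.25 (A2M-132) and 19.9 (A2M-112), with a median of 12.8 RPKM. Here 3 of the 6 A2M tumours were above all PBS tumours, and A2M-132 was below them. The log2 fold change was 0.19 (SE 0.174, 95% interval -0.19 to 0.56, edgeR adjusted p = 0.883), and 0.0374 without A2M-112.

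SERPINE2, which encodes protease nexin-1, an inhibitor of thrombin, urokinase and the tissue-type activator (chromosome 2, 224839762 to 224904035, minus strand), varied least of the members over the 11 tumours, though not within the PBS group. It was at 10.7, 11.1, 12.8, 10.8 and 14.4 RPKM in the PBS tumours in the order of their numbers. In the A2M group it lay between 9.80 (A2M-131) and 14.4 (A2M-132), with a median of 13.02 RPKM. The PBS range lay within that of the A2M group. Its log2 fold change was 0.02 (SE 0.115, 95% interval -0.23 to 0.27, edgeR adjusted p = 0.982).

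SERPINB2, which encodes plasminogen activator inhibitor type 2, an inhibitor that is largely kept inside the cell (chromosome 18, 61538926 to 61571122, plus strand), was the weakest signal of the system, with 19 to 107 counts per tumour. It was at 0.804, 1.07, 0.899, 1.06 and 0.927 RPKM in the PBS tumours in the order of their numbers. In the A2M group it lay between 0.435 (A2M-132) and 1.49 (A2M-128), with a median of 0.859 RPKM. The A2M group extended beyond the PBS group at both ends. The log2 fold change was -0.08 (SE 0.272, 95% interval -0.66 to 0.51, edgeR adjusted p = 0.970), the widest interval of the 5 members. SERPINB2 shares 547 exon bases with an unnamed protein-coding gene of the annotation that is not listed among the genes counted here.

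Of the 5 members, 5 were tested and 0 passed an adjusted p of 0.01 (edgeR), as did 0 of the 16630 genes tested (0%). At an unadjusted p under 0.05 the count was 0 of 5 members against 1178 of all genes (7.08%), and with groups that did not overlap it was 0 of 5 against 118 of all genes (0.71%). DESeq2 called 1 gene past the same adjusted threshold and limma-voom called 0, none of them a member. The log2 fold changes were above 0 in 3 members and below 0 in the other 2, with a median of 0.02 against -0.0021 over all genes tested.

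**Figure D2:**
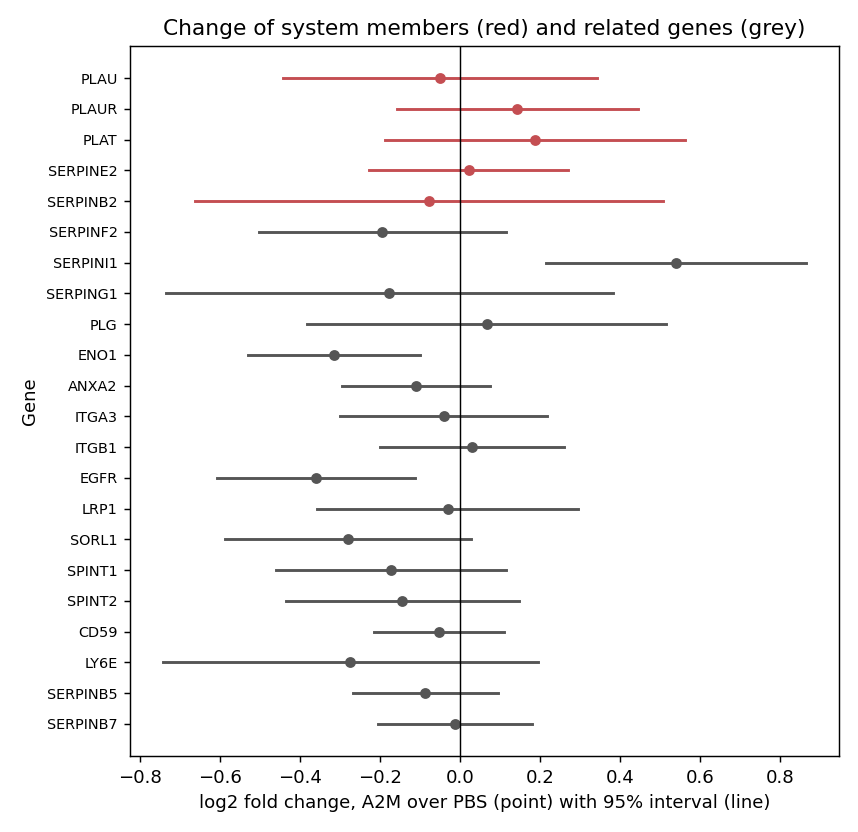
Log2 fold change of A2M over PBS (points) with its 95% interval from edgeR (lines) for the 5 members in red and 17 related genes in grey, 5 against 6 tumours. The intervals of all 5 members include 0, and those of SERPINI1, ENO1 and EGFR, none of which passed the adjusted threshold, do not.

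How much the members varied between tumours differed from gene to gene. Over the 11 tumours the coefficient of variation of RPKM was 23.7% for PLAU, 19.4% for PLAUR, 24.5% for PLAT, 13.6% for SERPINE2 and 33.8% for SERPINB2, against a median of 13.4% over all genes tested. SERPINE2 was thus close to the typical gene, and SERPINB2, the member with the fewest counts, varied more than 92.7% of genes. Values for A2M against PBS were 30.3% against 16.1% for PLAU, 20.8% against 15.8% for PLAUR and 30.0% against 8.34% for PLAT. They were 14.4% against 13.6% for SERPINE2 and 47.5% against 11.9% for SERPINB2. The share of all genes tested in which the A2M group varied more is not given here. Without A2M-112 the values of the A2M group were 12.2% for PLAU and 6.86% for PLAUR, both below the PBS group, and 23.7% for PLAT, 15.7% for SERPINE2 and 54.1% for SERPINB2. The difference in spread between the groups was not tested.

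The balance of urokinase with its partners was then compared as the ratio of RPKM within each tumour. PLAU stood to its receptor PLAUR at between 26.3 to 1 (A2M-132) and 45.3 to 1 (PBS-126). On the log2 scale the mean ratio was 5.19 ± 0.185 (SD, n = 5) for PBS and 4.97 ± 0.174 (SD, n = 6) for A2M, a difference of -0.22 (exact permutation test, two-sided and over every labeling, p = 0.0801, adjusted p = 0.195 over the 4 ratios). A2M-112, with the most PLAU and the most PLAUR, had a ratio of 35.9, inside the range of the other tumours. The ratio of PLAU to PLAT lay between 109 (A2M-131) and 189.6 (PBS-124), and the groups differed by -0.22 on the log2 scale (exact permutation test, p = 0.0974, adjusted p = 0.195).

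Against the inhibitors the ratio of PLAU covered a wider range. PLAU stood to SERPINE2 at between 93.6 (A2M-132) and 227 (A2M-112), with a log2 difference between the groups of -0.11 (exact permutation test, p = 0.690, adjusted p = 0.690). To SERPINB2 the ratio lay between 1208 (A2M-128) and 2827 (A2M-129), with a log2 difference of 0.13 (exact permutation test, p = 0.608, adjusted p = 0.690). None of the 4 ratios differed between the groups past an adjusted p of 0.05, and the smallest p that these labelings allow is 0.00216.

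**Figure D3:**
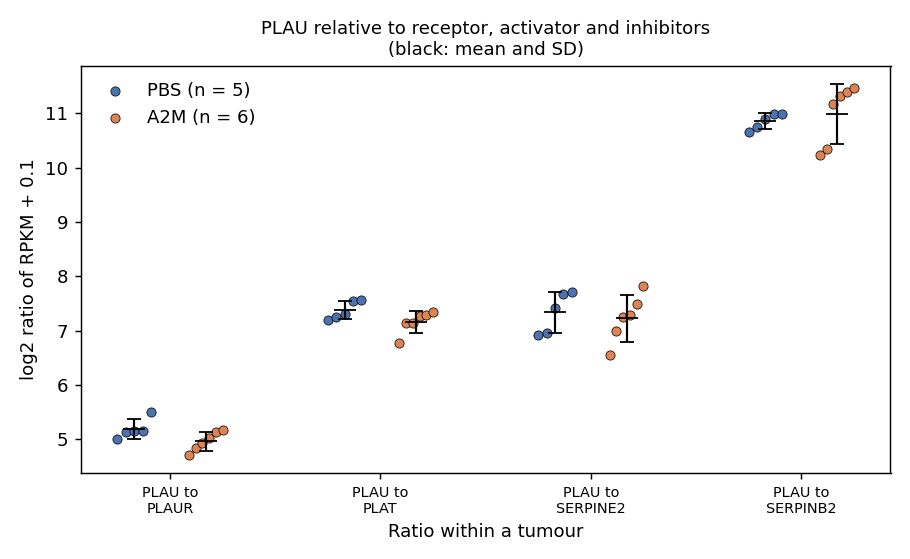
Log2 ratio of PLAU to PLAUR, PLAT, SERPINE2 and SERPINB2 within each tumour, from RPKM + 0.1, with 5 PBS tumours in blue, 6 A2M tumours in orange and the mean and SD in black. The groups overlap for each ratio, and the ratio to SERPINB2 has the largest SD in the A2M group (0.549).

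Over all 11 tumours, the 3 pairs among PLAU, PLAUR and PLAT passed by Pearson's r but not by rank. Pearson's r of log2 CPM (counts per 1e+06, TMM) over 11 tumours was 0.775 for PLAU and PLAUR (100000 permutations, p = 0.00789, adjusted p = 0.0263 over the 10 pairs of members), 0.786 for PLAU and PLAT (p = 0.00701, adjusted p = 0.0263) and 0.783 for PLAUR and PLAT (p = 0.00501, adjusted p = 0.0263). Spearman's rho for the same 3 pairs was 0.482 (p = 0.138, adjusted p = 0.345), 0.655 (p = 0.0343, adjusted p = 0.171) and 0.755 (p = 0.00942, adjusted p = 0.0942), so that none of them passed by rank. The other 7 pairs, all those with SERPINE2 or SERPINB2, had r between -0.30 (PLAT and SERPINE2) and 0.559 (PLAU and SERPINB2), and none passed.

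These 3 relations rested on a few tumours. Without A2M-112, r was 0.494 for PLAU and PLAUR, 0.575 for PLAU and PLAT and 0.538 for PLAUR and PLAT (permutation test, adjusted p = 0.292, 0.267 and 0.283). Without A2M-112 and PBS-124, the 2 farthest from the median of the first gene of each of these pairs, r was -0.00027, 0.608 and 0.625 over 9 tumours. Without A2M-132, which had the least PLAU and the least PLAT, r was 0.796, 0.685 and 0.840 (permutation test, adjusted p = 0.0629, 0.128 and 0.0629). Leaving out PBS-124 alone gave 0.735 for PLAU and PLAUR (permutation test, adjusted p = 0.176). Within the 6 A2M tumours r was 0.932, 0.883 and 0.857 (exact permutation test, adjusted p = 0.132, 0.134 and 0.125); the 5 PBS tumours were not taken alone, since correlations were computed over 6 or more tumours.

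**Figure D4:**
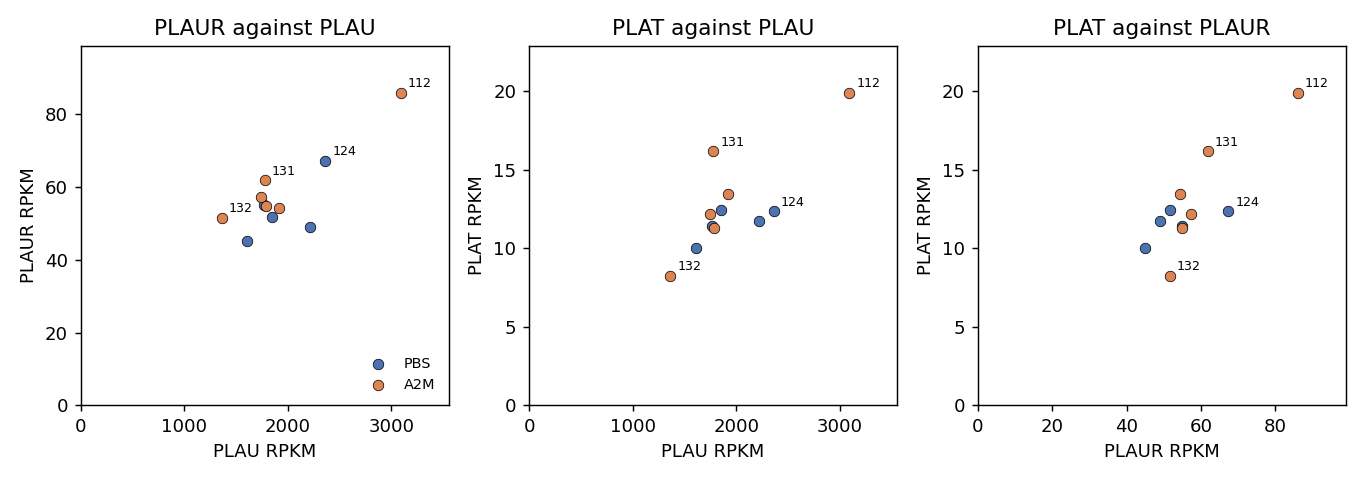
RPKM of PLAUR and of PLAT against that of PLAU, and of PLAT against that of PLAUR, 1 point per tumour, PBS in blue and A2M in orange, with A2M-112, PBS-124, A2M-131 and A2M-132 labelled by number and linear axes from 0. A2M-112 stands apart at the upper right of each panel, and A2M-131 has more PLAT than the other tumours but A2M-112 (16.2 RPKM) at a middling level of PLAU (1777 RPKM).

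The genes around the members were read from 7 lists with 73 genes in the tables, of which 55 were tested. Of these, 0 passed the adjusted threshold, and at an unadjusted p under 0.05 there were 1 higher and 2 lower in the A2M group, against 7.08% of all genes. The median log2 fold change was -0.06, with 16 genes above 0 and 39 below, against a median of -0.0021 over all 16630 genes tested, with 8220 above and 8410 below.

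Among 8 inhibitors of the activators and of plasmin, 4 were tested. SERPINI1, which encodes neuroserpin, an inhibitor of the tissue-type activator, had 1.18 ± 0.0986 RPKM (SD, n = 5) in PBS and 1.76 ± 0.411 RPKM (SD, n = 6) in A2M tumours, with 5 of 6 A2M tumours above all PBS tumours (log2 fold change 0.54, SE 0.152, edgeR adjusted p = 0.599). SERPINF2, the plasmin inhibitor alpha2-antiplasmin, had a log2 fold change of -0.19 (SE 0.143, edgeR adjusted p = 0.841), and SERPING1, the C1 inhibitor, one of -0.18 (SE 0.260, edgeR adjusted p = 0.925). Human A2M itself had at most 2 counts in a tumour and was not tested, so the tumour cells' own transcript was at or below the 3 counts taken as the smallest amount shown.

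Plasminogen RNA was scarce, and the RNA of its surface receptors covered a wide range of levels. PLG, which the liver makes, was between 0.154 and 0.379 RPKM (11 to 43 counts). ANXA2, which holds plasminogen at the cell surface together with S100A10, had 819 ± 51.5 RPKM (SD, n = 5) in PBS and 783 ± 71.4 RPKM (SD, n = 6) in A2M tumours (log2 fold change -0.11, edgeR adjusted p = 0.852). ENO1, a glycolytic enzyme that also binds plasminogen at the surface, had 676 ± 60.1 RPKM (SD, n = 5) against 560.4 ± 57.8 RPKM (SD, n = 6), a log2 fold change of -0.32 (SE 0.0997, edgeR adjusted p = 0.640). PLGRKT, a receptor of plasminogen in the cell membrane, was lower than these, between 14.5 and 19.8 RPKM (log2 fold change -0.07, edgeR adjusted p = 0.909). Of the 7 tested genes on this list, 6 had a value below 0, against 8410 of the 16630 genes tested, and none passed.

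Partners and uptake receptors of PLAUR showed no gene past the threshold either. The integrin chains ITGB1 and ITGA3, with which the receptor associates, had log2 fold changes of 0.03 (SE 0.107, edgeR adjusted p = 0.972) and -0.04 (SE 0.120, edgeR adjusted p = 0.970). EGFR, through which the receptor can signal, had 8.20 ± 1.63 RPKM (SD, n = 5) in PBS and 6.58 ± 0.632 RPKM (SD, n = 6) in A2M tumours, a log2 fold change of -0.36 (SE 0.115, edgeR adjusted p = 0.640). LRP1 had 39.2 ± 8.57 RPKM (SD, n = 5) against 39.6 ± 6.64 RPKM (SD, n = 6), with a log2 fold change of -0.03 (SE 0.152, edgeR adjusted p = 0.980) that was 0.02 when scaled by library size only. SORL1, a related sorting receptor, had a log2 fold change of -0.28 (SE 0.143, edgeR adjusted p = 0.739).

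No gene of the remaining lists passed either. SPINT1 and SPINT2, inhibitors of the proteases that activate pro-HGF, had log2 fold changes of -0.17 and -0.14 (edgeR adjusted p = 0.849 and 0.884), and HGF, which urokinase can activate, had 1 to 14 counts and was not tested. Among the relatives of PLAUR that share its three-finger fold, the complement regulator CD59 had -0.05 and LY6E had -0.27 (edgeR adjusted p = 0.924 and 0.857). Of the serpins that lie in a cluster with SERPINB2, SERPINB5 (maspin) and SERPINB7 were between 25.98 and 36.97 RPKM in every tumour, far above the 1.49 RPKM that SERPINB2 reached, and had log2 fold changes of -0.09 and -0.01 (edgeR adjusted p = 0.887 and 0.985).

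The genes whose log2 CPM ran most like each member over the 11 tumours were not other members. For PLAU they were POTEJ (Pearson's r 0.930), ROBO4 (0.929) and FAM19A3 (0.926), and PLAT ranked 189 and PLAUR 223 among all genes tested. For PLAUR they included KLF7 (0.914) and SPHK1 (0.898), and PLAT ranked 85. For PLAT they included GADD45A (0.941) and TBC1D1 (0.941). For SERPINE2 they were ALPP (0.898), WHAMM (0.869) and MSANTD1 (0.858), and for SERPINB2 they were FAM172BP (0.908), CSF2 (0.883) and SMAP1 (0.881). These are among the highest over all genes tested and are given as a description, without a test.

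Summed RPKM of genes used as markers of other cell types was set beside each member. The r values printed below include the largest ones, and none is given without A2M-112, which had the most PLAU and PLAUR. Only reads assigned to human were counted, and the only human cells injected were PC-3. These sums are thus no measure of cells of the mouse host or of other human cell types. Whether some mouse reads were assigned to human was not tested. The summed RPKM of 7 fibroblast genes lay between 56.7 and 115 in the PBS group and between 56.1 and 158 in the A2M group, highest in A2M-112 (158) and A2M-131 (138). Nearly all of it was COL1A1 (49.7 to 148 RPKM), while the defining fibroblast genes DCN and LUM were at or below 0.0920 RPKM. Its log2 value had a Pearson's r of 0.747 with PLAUR and 0.244 with PLAU over 11 tumours. The sum of 6 leukocyte and macrophage genes lay between 12.1 and 16.8 RPKM in PBS and between 12.7 and 17.03 RPKM in A2M tumours, highest in A2M-112, with r of 0.725 with PLAU. Mostly this was CD68 (10.47 to 15.3 RPKM), and PTPRC was at or below 0.357 RPKM. Endothelial genes summed to between 3.44 and 5.31 RPKM, with an r of -0.27 with PLAU. Total counts had r of 0.376 with PLAU and 0.677 with SERPINB2. The part of these differences in the levels of the members was not tested.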

How the data were processed

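RNA was sequenced from 11 PC-3 tumours, 1 library each. According to the methods and the submitters' processing notes, the authors used xenome to set human reads apart from mouse reads, aligned the former to hg19 (TopHat2) and assigned them to RefSeq genes (featureCounts); strand setting and versions are not given in the sources used here, and the library kit does not mark strand. Reads assigned to mouse were not used here. The deposited counts are not normalized. The deposited RPM values divide each count by the tumour's total, and the deposited RPKM values further divide by exon length.

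Filtering (filterByExpr), scaling (TMM) and the quasi-likelihood test of the counts used edgeR 4.0.16 (R 4.3.3), with treatment as the only factor, over all 16630 genes kept, at a Benjamini-Hochberg adjusted p of 0.01. Ratios (pseudocount of 0.1 on RPKM), orders and relations were tested by permutation of tumours at an adjusted p of 0.05. Steps were tested on simulated data. Totals lay between 16958533 and 35874381 counts, and 3 counts equalled 0.0836 to 0.177 RPM. The labels do not say that each tumour came from its own animal, so p-values measure the spread between these tumours only, which may in part be technical.

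Members, lists and tests were chosen with earlier results of these data known. Named were the 5 members, PLG, SERPINF2, LRP1, HGF and A2M, the 2 genes of each list with the highest mean RPKM, any list gene with an unadjusted p under 0.05 or groups that did not overlap, and the 3 genes most like each member (2 of these genes and 1 inhibitor are not reported here, and the inhibitor was left out of its list and of the ratios); S100A10, PLGRKT, C10orf55 and the marker genes named beside the sums were added afterwards. Alternatives were RLE or library-size scaling, other filters, DESeq2 1.42.0, limma-voom (limma 3.58.1), the exact test of edgeR, other thresholds, pseudocounts and scales, the A2M group alone and each tumour left out. Positions are from GENCODE on GRCh37, the hg19 assembly.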

Additional observations from a re-analysis of the deposited data

Results flagged for a closer look

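Values of 58 groups of tumours, taken over the members, the related genes named and the ratios, were searched for a tumour that lay far from the others of its group (gap to the nearest tumour over the range of the group, Dixon's 95% limit). There were 9 such values. Chance would give about 5% of groups, or 2.9, if the groups were independent and normally distributed. The groups share tumours, and several contain PLAU, so 9 against 2.9 is no test of an excess.

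A2M-112 held 3 of the values found in this search. Its PLAU was 3088 RPKM, where the nearest A2M tumour had 1917 RPKM and PBS-124 had 2359.7 RPKM. Its PLAUR was 85.9 RPKM, where the nearest A2M tumour had 61.8 RPKM and PBS-124 had 67.3 RPKM. The 5 members together took 0.859% of its counts, a value that largely repeats that of PLAU. The nearest A2M tumour had 0.535% and PBS-124 had 0.656%. A2M-112 also had the highest summed RPKM of the 7 fibroblast genes (158 RPKM), which was nearly all COL1A1 (148 RPKM). The part of this in the levels of PLAU and PLAUR was not tested.

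The ratio of PLAU to PLAT was lowest in A2M-131, at 6.77 on the log2 scale, where the nearest A2M tumour had 7.14. HGF was 0.121 RPKM in the same tumour, where the nearest A2M tumour had 0.0364 RPKM, both from few counts. SERPING1 was 5.45 RPKM in A2M-132, with the nearest A2M tumour at 3.61 RPKM, but the PBS group reached 7.11 RPKM. EGFR was 7.75 RPKM in A2M-130, with the nearest A2M tumour at 6.69 RPKM, but the PBS group reached 10.2 RPKM. In the PBS group, PBS-124 had 0.271 RPKM of PLG, with the nearest PBS tumour at 0.230 RPKM, while the A2M group reached 0.379 RPKM. PBS-124 also had 426 RPKM of ITGA3, with the nearest PBS tumour at 336 RPKM, while the A2M group reached 421 RPKM.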

How the results depend on the processing

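No member passed the adjusted threshold under any scaling, filter, test or left-out tumour tried, and the 3 large steps in the order of levels held under each alternative. Of all 16630 genes tested, 1 passed with DESeq2 and 1 with the exact test of edgeR. An unadjusted p of 0.01 or less with edgeR as well as with DESeq2 was reached by 241 of the 16630. This is like a rule in the study's methods, which used DESeq in place of DESeq2. By that rule 3 of the 55 tested genes of the related lists passed (EGFR, ENO1 and SERPINI1), and none of the 5 members did. The study itself reports no significant change in PC-3 tumour tissue at an adjusted p under 0.01. Where a fold change is close to 0, its sign or size depended on the setting. With each tumour left out in turn, the log2 fold change ranged from -0.238 to 0.0368 for PLAU, from 0.0130 to 0.250 for PLAUR, from 0.0374 to 0.297 for PLAT, from -0.0260 to 0.0977 for SERPINE2, from -0.285 to 0.0618 for SERPINB2 and from -0.108 to 0.0647 for LRP1, and that of LRP1 was 0.0158 with library size only. Likewise, the difference in the log2 ratio of PLAU to SERPINE2 ranged from -0.224 to 0.0311, and the log2 difference in level of PLAT and SERPINE2 from -0.0490 to 0.103. The number of pairs of members past an adjusted p of 0.05 was 0 in the A2M tumours alone, and from 0 (without A2M-112 or A2M-132) to 3 with each tumour left out. Pearson's r of PLAUR and SERPINE2 was -0.00212 with log2(RPM + 0.1) and ranged from -0.263 to 0.133 with each tumour left out. For PLAU and SERPINE2, r was 0.120 in the A2M tumours alone and ranged from -0.387 to 0.140, and for PLAT and SERPINB2 it ranged from -0.0370 to 0.504. In each case the cause was not tested. No paired analysis was possible because the groups share no tumour numbers. With 19 to 107 counts, SERPINB2 is the member most limited by depth.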
